A study of Rattus norvegicus with 28 samples.

Results

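Astrocytes were the cells of 16 of the 28 RNA libraries of the series, and they were used here to set the response to HERV-W ENV against the response to lipopolysaccharide (LPS). HERV-W ENV is the envelope protein of a human endogenous retrovirus, given as recombinant protein, and LPS is a component of the outer wall of Gram-negative bacteria. The libraries fell into 4 groups of 4: ENV at 1 µg/ml, its vehicle (buffer), LPS at 100 ng/ml and its vehicle (H2O). All came from primary cortical cultures of Wistar rats at postnatal day 1, grown for 10 days in flasks and stimulated 3 days after the astrocytes had been isolated, in medium with 10% fetal calf serum. No group carried a genetic change. Neither the length of the stimulation nor whether a replicate number stands for one litter or culture is stated in the labels. The p-values rest on the spread within groups that is left after differences shared by a replicate number are taken out. That spread may therefore be technical. The quantity of interest was the ENV response (ENV minus buffer) minus the LPS response (LPS minus H2O), each on the log2 scale, together with the genes that both stimuli moved in one direction.

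LPS is bound by LBP and CD14 and passed to the receptor complex of TLR4 and MD-2 (Ly96). The complex signals through the adaptors MyD88 and TIRAP to NF-kB and MAP kinases, and through TRIF and TRAM to TBK1, IRF3 and the type I interferons, whose receptor drives STAT2 and IRF9. HERV-W ENV has been described as a ligand of TLR4 and CD14, which is why the comparison with LPS is of interest. Astrocytes answer inflammatory signals with chemokines, complement and acute-phase proteins, and they lose part of the gene expression that serves their glutamate, potassium and water transport.

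Messenger RNA totals ran from 23742228 to 35326938 counts per library, and levels are given in CPM, counts scaled to 1 common library total. A count of 0 allows up to 3 counts, or 0.0849 to 0.126 CPM in a library, and such limits cover counting error only. Of 19423 genes listed in both sets of files, 15496 had enough counts to be tested. Astrocyte markers were high in all libraries: the CPM of 10 markers, Gfap and Aqp4 among them, summed to between 2616 and 11654. Markers of microglia and macrophages, all 18 of them detected, summed to 168 to 1106 CPM, and 13 markers of fibroblasts and mural cells to 1682 to 11229 CPM. The cultures were therefore not of 1 cell type, and in bulk RNA fewer cells of a type and less RNA per cell cannot be told apart.

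**Figure D1:**
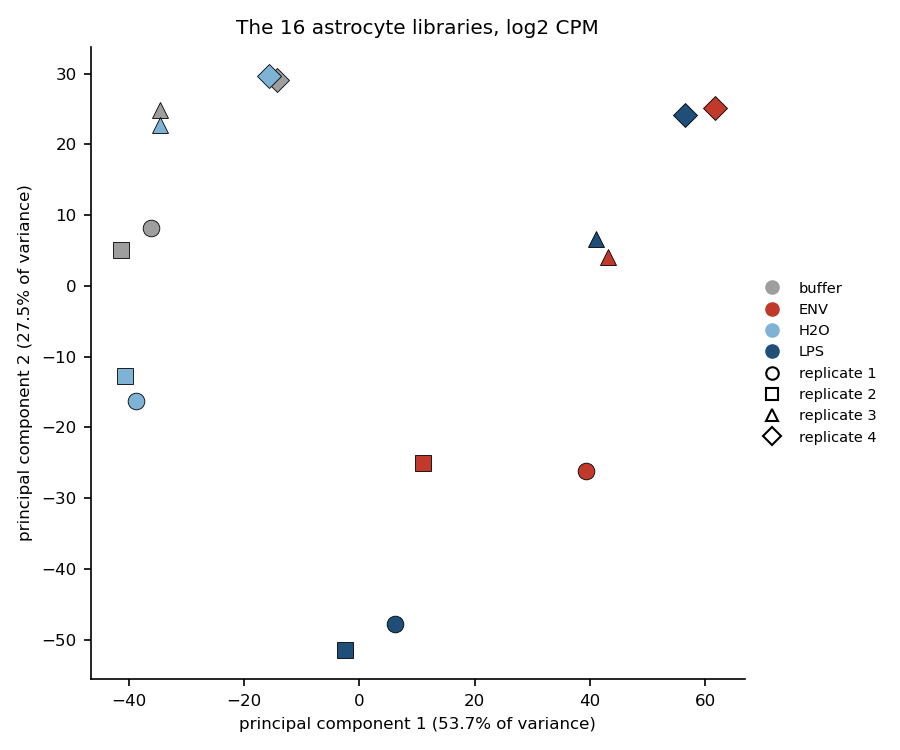
Principal components of log2 CPM in the 16 astrocyte libraries. The x axis is component 1 (53.7% of the variance) and the y axis component 2 (27.5%), colour gives the group and shape the replicate number. At replicates 3 and 4 the ENV library lies beside the LPS library and buffer beside H2O. At replicates 1 and 2 the LPS libraries lie below the ENV libraries and the H2O libraries below the buffer libraries.

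The sets resembled each other most at replicates 3 and 4. By rank correlation over genes, ENV replicate 4 was nearest to LPS replicate 4 (Spearman's rho 0.996) and ENV replicate 3 to LPS replicate 3 (0.990), and the vehicles of these numbers paired likewise (0.996 and 0.997). At replicates 1 and 2, LPS replicate 1 was instead nearest to LPS replicate 2 (0.989) and H2O replicate 1 to H2O replicate 2 (0.987), while ENV replicate 1 was nearest to ENV replicate 2 (0.962), ENV replicate 2 to LPS replicate 2 (0.963) and both buffer libraries to H2O replicate 3 (0.981 and 0.982). Results are therefore also given by replicate number.

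No gene passed the test of the difference between the responses. Of 15496 genes, 0 (0%) were called by the edgeR quasi-likelihood F test at a Benjamini-Hochberg adjusted p under 0.05, and the smallest adjusted p was 0.99997. At an unadjusted p under 0.05 there were 242 genes (1.56%), 115 (0.742%) with the ENV response above and 127 (0.820%) with the LPS response above. Were all p-values uniform, 774.8 genes would lie under that threshold. The test thus gave fewer small p-values than chance alone would, and 0 calls do not show that the responses were equal. DESeq2 called 22 genes, of which 21 had too few counts for the edgeR test, with at most 9 counts in any library. The vehicles themselves gave 0 calls (0%; 508 genes, 3.28%, at an unadjusted p under 0.05; 12 calls by DESeq2). ENV against LPS libraries, without reference to the vehicles, also gave 0 calls (0%; 1148 genes, 7.41%, at an unadjusted p under 0.05; 36 calls by DESeq2). How far apart the responses could still be follows from the intervals: the 95% interval of the difference lay within 1 log2 unit on either side of 0 for 10915 genes (70.4%), and the median distance from the estimate to the bound of the interval was 0.44. For the other genes a difference of more than 1 log2 unit was within the interval.

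Each response on its own was broad. ENV moved 5103 genes (32.9% of those tested), 2383 up (15.4%) and 2720 down (17.6%). LPS moved 3976 (25.7%), 1873 up (12.1%) and 2103 down (13.6%). Called with both stimuli in the same direction were 3435 genes (22.2%), 1597 up (10.3%) and 1838 down (11.9%), and 0 genes (0%) were called in opposite directions. These common genes were 67.3% of the ENV calls and 86.4% of the LPS calls. Among the 1668 genes called with ENV alone, 1645 had an LPS change of the same sign, with a median absolute log2 change of 0.50 for ENV and 0.28 for LPS, and 93 had an unadjusted interaction p under 0.05. Among the 541 called with LPS alone, 533 had an ENV change of the same sign, and 29 had an unadjusted interaction p under 0.05. Being called with 1 stimulus alone is thus no measure of a difference, and none of these genes was called in the test of the difference.

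**Figure D2:**
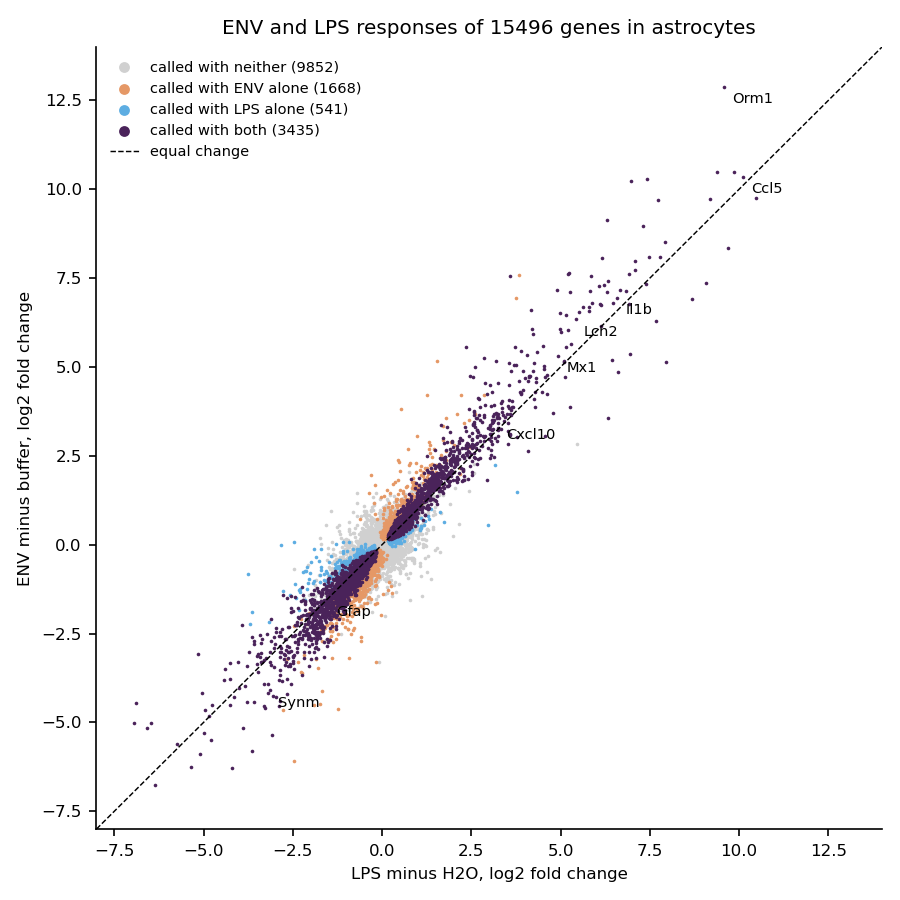
The log2 change with ENV (y axis) against the log2 change with LPS (x axis) for the 15496 tested genes, coloured by the stimulus with which each was called. The dashed line marks equal change. The 3435 genes called with both lie at the upper right and the lower left, and 0 lie in the other corners.

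Over all tested genes the log2 changes correlated with r = 0.93, a description over genes, which are not independent replicates. Of the 3435 common genes, 2442 (71.1%) had the larger absolute change with ENV, and the median ratio of the LPS change to the ENV change was 0.886. Genes higher with both had a median log2 change of 0.72 with ENV and 0.63 with LPS, and genes lower with both of -0.93 and -0.82. The excess on the ENV side lay mostly at replicate 1. There, 79.5% of the genes higher with both rose more in the ENV set, with a median difference of 0.27, against 54.9%, 57.2% and 56.7% and median differences of 0.04, 0.04 and 0.02 at replicates 2, 3 and 4.

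The receptor side of the pathway had small median changes, though a larger share of it rose than of all tested genes. Over 17 tested genes of the TLR4 complex and its adaptors the median log2 change was 0.24 with ENV and 0.27 with LPS. Over all tested genes it was -0.0116 and -0.000848. With ENV 8 of the 17 rose and 1 fell, beside 15.4% and 17.6% of all tested genes. With LPS 6 rose and 0 fell, beside 12.1% and 13.6%. Tlr4, the receptor gene, stood at 5.93, 1.73, 3.72 and 4.98 CPM in buffer replicates 1 to 4 and at 4.95, 1.34, 2.96 and 3.86 CPM with ENV. With H2O it stood at 3.78, 2.12, 3.58 and 6.11 CPM and with LPS at 1.11, 1.14, 2.62 and 4.05 CPM. Treated libraries overlapped their vehicles in both sets, and neither change was called (log2 changes of -0.32 ± 0.30 (SE), adjusted p = 0.442, and -0.82 ± 0.31, adjusted p = 0.0694). The LPS change of Tlr4 was called with a replicate block within each set (-0.89, adjusted p = 0.0156), by DESeq2 (-0.81, adjusted p = 0.0392) and without replicate number 1 (-0.62, adjusted p = 0.0387). Cd14, the co-receptor, read 26.5, 8.63, 17.8 and 31.5 CPM in buffer, 161, 11.7, 63.4 and 119 with ENV, 15.1, 13.1, 18.6 and 31.5 in H2O and 28.2, 21.5, 54.9 and 103 with LPS. Its libraries also overlapped in both sets, yet it was called with ENV (1.90 ± 0.45, adjusted p = 0.00734) and not with LPS (1.26 ± 0.45, adjusted p = 0.059). The difference was 0.65 (95% interval -0.72 to 2.01), with an unadjusted p of 0.321. With replicates 3 and 4 alone the LPS change of Cd14 was called (1.64, adjusted p = 2.81e-05), and it was also called by DESeq2 (adjusted p = 0.0115), with a replicate block within each set (0.0216) and without ENV replicate 1, ENV replicate 2, H2O replicate 2, LPS replicate 1 or replicate number 1 or 2 (adjusted p between 0.0191 and 0.0324). The ENV call was lost without replicate number 3 (adjusted p = 0.0536) and with replicates 1 and 2 alone (0.216). Ly96, which encodes MD-2, rose with both (0.86 with ENV and 0.95 with LPS on the log2 scale), as did the kinase genes Irak2 (1.3 with ENV and 1.20 with LPS) and Map3k8 (2.83 with ENV and 2.52 with LPS). Myd88 (log2 changes of 0.28 with ENV and 0.16 with LPS) and Ticam2, which encodes TRAM (0.20 with ENV and 0.11 with LPS), were not called with either.

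NF-kB subunits and their feedback inhibitors rose together with both stimuli. The counts of this and the later lists stand beside these shares over all tested genes. With ENV 15.4% rose and 17.6% fell, with LPS 12.1% and 13.6%, and with both 10.3% and 11.9%. Of 22 tested, 19 rose and 0 fell with ENV, 20 rose and 0 fell with LPS, and 19 rose with both, with median log2 changes of 1.85 with ENV and 1.94 with LPS. Nfkbia, the inhibitor that is itself an NF-kB target, went from 57.3, 48.02, 57.98 and 93.9 CPM in buffer to 392.4, 245, 691 and 625 CPM with ENV at replicates 1 to 4. In the LPS set it went from 41.3, 39.7, 58.3 and 94.04 to 198, 161, 626 and 585 CPM. Treated and vehicle libraries did not overlap in either set, which held for 5.54% of all tested genes in the higher direction, and replicates 3 and 4 were the highest with both stimuli. The log2 change was 2.84 ± 0.25 with ENV (adjusted p = 1.81e-05) and 2.62 ± 0.25 with LPS (5.68e-05), and the difference was 0.22 (95% interval -0.52 to 0.95). Tnfaip3, the ubiquitin-editing inhibitor A20, rose by 3.06 ± 0.33 and 2.81 ± 0.32, and Zc3h12a, the ribonuclease that degrades cytokine messages, by 2.91 ± 0.12 and 2.74 ± 0.12. The interval for Zc3h12a was among the narrower ones, 0.17 (95% interval -0.18 to 0.52). Nfkb2 and Relb, the subunits of the non-canonical branch, had the larger estimate with LPS, with log2 changes of 2.10 with ENV and 2.27 with LPS and of 1.83 with ENV and 2.07 with LPS. Their differences were -0.18 (95% interval -0.55 to 0.20) and -0.24 (95% interval -0.62 to 0.14). Sod2, the mitochondrial superoxide dismutase, reached the highest level of the group, 4429.7 ± 2520.3 CPM with ENV and 3503 ± 3366 CPM with LPS (SD, n = 4).

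Cytokine genes followed. Of 22 tested, 16 rose and 1, Tnfsf13b (BAFF), fell with each stimulus, and the median log2 change was 2.55 with ENV and 2.48 with LPS (2.36 with LPS when genes absent from the vehicle were set to their lower bound). Il1b read 4.43, 0.679, 1.76 and 3.03 CPM in buffer and 581, 59.7, 296 and 391 CPM with ENV. In the other set it read 3.46, 1.25, 1.63 and 2.30 CPM in H2O and 108, 91.04, 293.5 and 274 CPM with LPS. Groups did not overlap, and ENV replicate 1 was the highest library while ENV replicate 2 was the lowest treated one. The changes were 6.95 ± 0.51 (adjusted p = 8.93e-06) and 6.57 ± 0.51 (2.28e-05) with a difference of 0.38 (95% interval -1.03 to 1.79), made up of 2.08, 0.21, -0.09 and 0.13 at replicates 1 to 4. Il1a rose by 7.72 ± 0.62 and 7.09 ± 0.63, Tnf by 3.10 ± 0.36 and 2.75 ± 0.36, and Il6 by 5.60 ± 0.87 and 4.52 ± 0.83. Csf3, the granulocyte growth factor, was near 0 in both vehicles. Its ratio of summed counts was 1549.7 (95% counting interval 530.0 to 7517) with ENV and 711 (243 to 3448) with LPS. Csf1, which was already abundant, rose by 1.67 ± 0.17 and 1.58 ± 0.17, and the IL-6 family gene Lif by 1.82 ± 0.27 and 2.30 ± 0.27.

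All 9 tested CC chemokines and 11 of 12 CXC and CX3C chemokines rose with both. The exception was Cxcl14 (-0.05 with ENV and 0.06 with LPS, not called). Median log2 changes were 6.81 with ENV and 6.14 with LPS for the CC group and 5.19 with ENV and 4.46 with LPS for the other, the highest medians of the signalling groups here. Ccl2, a monocyte attractant, was at 67.2, 42.8, 38.6 and 160.2 CPM in buffer and 1721, 1024, 2054 and 2796 CPM with ENV. It was at 185, 91.7, 42.8 and 139 CPM in H2O and 1628, 1313, 2231 and 2554 CPM with LPS. Stimulated libraries of both sets covered a similar range, while H2O replicates 1 and 2 were above their buffer counterparts. The changes were 4.76 ± 0.43 (adjusted p = 1.81e-05) and 4.13 ± 0.42 (6.7e-05), with a difference of 0.62 (95% interval -0.51 to 1.75), and 1.54, 0.74, 0.03 and -0.07 by replicate. Ccl5, an attractant of T cells and monocytes, was the largest common rise by the smaller of its log2 changes (10.35 ± 0.77 and 10.10 ± 0.79). It went from at most 1.65 CPM in any vehicle library to 845, 349.7, 987 and 902 CPM with ENV and 134, 119.5, 1124 and 799 CPM with LPS, replicates 3 and 4 being the highest with LPS.

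Cxcl10 and Cxcl11 are neighbouring genes for attractants of activated T cells. Cxcl10 was at 11.6, 12.5, 10.5 and 39.8 CPM in buffer and 374, 209.9, 109 and 72.4 CPM with ENV. The LPS set read 11.3, 10.01, 12.5 and 35.9 CPM in H2O and 181, 265, 106 and 69.2 CPM with LPS. In both sets replicate 4 had the highest vehicle and the lowest stimulated library, so its rise was the smallest there. The changes were 3.44 ± 0.69 and 3.24 ± 0.69, with a difference of 0.19 (95% interval -1.72 to 2.10), and with replicates 3 and 4 alone neither was called (2.02, adjusted p = 0.133, and 2.03, adjusted p = 0.140), nor was the LPS change without replicate number 3 (3.31, adjusted p = 0.0504). Cxcl11 rose by 7.17 ± 0.58 and 6.67 ± 0.58. Cxcl16, which encodes a membrane-bound chemokine, had one of the narrower intervals: 55.9, 40.5, 53.3 and 96.7 CPM in buffer and 796, 582, 666 and 1009 CPM with ENV. Against 41.8, 49.4, 53.4 and 95.1 CPM in H2O it reached 507, 583, 610.5 and 955 CPM with LPS. The rises were 3.68 ± 0.14 and 3.50 ± 0.14 and the difference 0.18 (95% interval -0.21 to 0.57).

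The sequences before the starts of 4 genes that rose with both stimuli are shown because NF-kB and interferon pathways act through such stretches. They are the 250 bases before the annotated start, from RefSeq on build GRCr8, 5′ to 3′ on the gene's strand, with matches in capitals. The windows are chr14:15988816-15989065 (+) for Cxcl10, chr14:15973478-15973727 (+) for Cxcl11, chr14:17479322-17479571 (-) for Cxcl1, a neutrophil attractant, and chr4:5894576-5894825 (-) for Il6. Capitals mark the interferon-stimulated response element GAAANNGAAA or the kappaB consensus, searched on both strands, where overlapping matches of the kappaB consensus on opposite strands form 1 run. The 4 genes were chosen after matches were seen, from those whose window ends at the first base of the gene.
Cxcl10: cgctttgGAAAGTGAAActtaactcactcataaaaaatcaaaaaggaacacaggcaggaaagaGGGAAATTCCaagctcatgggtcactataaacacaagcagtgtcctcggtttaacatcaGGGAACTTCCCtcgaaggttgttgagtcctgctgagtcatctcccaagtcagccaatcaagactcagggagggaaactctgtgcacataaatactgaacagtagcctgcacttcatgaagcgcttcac
Cxcl11: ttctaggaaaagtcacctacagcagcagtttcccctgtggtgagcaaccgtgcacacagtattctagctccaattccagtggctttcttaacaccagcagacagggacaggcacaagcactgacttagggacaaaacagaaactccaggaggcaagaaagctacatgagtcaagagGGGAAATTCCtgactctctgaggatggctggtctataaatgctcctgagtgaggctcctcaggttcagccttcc
Cxcl1: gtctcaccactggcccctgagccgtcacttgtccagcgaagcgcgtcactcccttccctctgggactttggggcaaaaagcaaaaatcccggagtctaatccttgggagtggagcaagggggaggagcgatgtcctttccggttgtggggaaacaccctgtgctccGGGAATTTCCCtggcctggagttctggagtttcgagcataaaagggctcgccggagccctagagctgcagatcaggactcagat
Il6: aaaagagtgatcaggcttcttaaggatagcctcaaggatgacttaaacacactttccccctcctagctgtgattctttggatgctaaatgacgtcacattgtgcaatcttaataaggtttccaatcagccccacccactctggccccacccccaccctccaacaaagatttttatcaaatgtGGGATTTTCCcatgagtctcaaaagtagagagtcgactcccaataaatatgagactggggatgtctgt
Cxcl10 held the response element at 243 to 234 bases before the start and kappaB matches at 187 to 178 and at 128 to 118. Cxcl11 held a kappaB match at 74 to 65 bases, Cxcl1 at 84 to 74 and Il6 at 68 to 59. Of the 1597 genes higher with both, 1255 had such a window, and the response element was found in 88 (7.01%) and the kappaB consensus in 154 (12.3%). Among the 1838 genes lower with both, 1361 had a window, with 22 (1.62%) and 130 (9.55%). Over 11219 tested genes with a window the shares were 2.83% and 9.06%, and over all 33469 windows supplied they were 3.41% and 6.33%. A match is a stretch of letters and not a measured binding site.

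**Figure D3:**
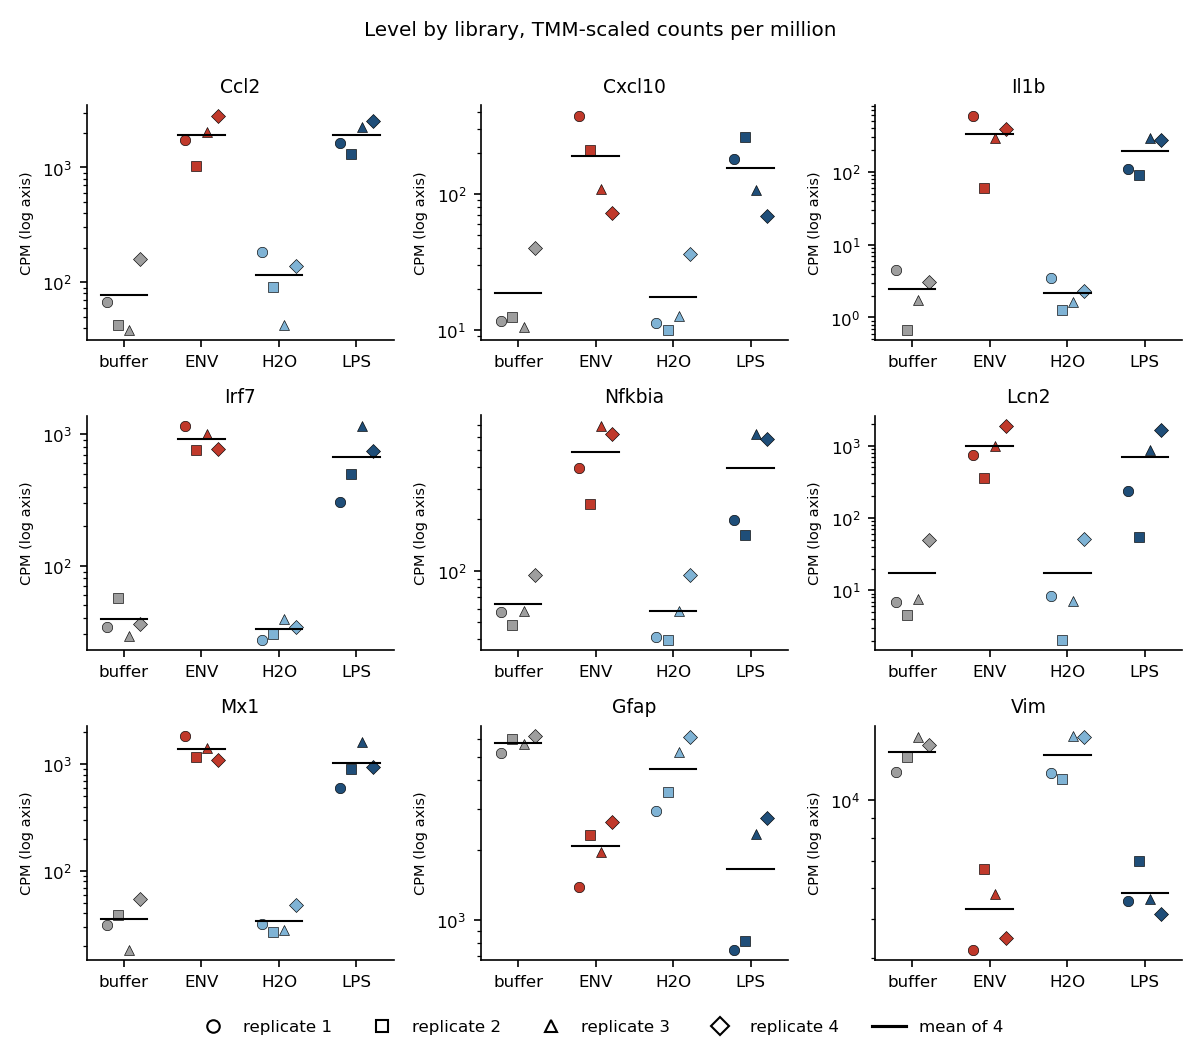
Level of 9 genes in every library, in CPM on a log axis. Points are libraries, shapes replicate numbers, colours groups, and the bar is the mean of 4. Treated and vehicle libraries do not overlap in either set for any of the 9 genes. The LPS libraries of replicates 1 and 2 are the lowest LPS libraries for Irf7, Mx1, Nfkbia and Gfap.

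The interferon branch was present with both stimuli. Of 19 tested genes for interferon receptors, kinases, STATs and IRFs, 14 rose and 1 fell with ENV, 13 rose and 1 fell with LPS, and the median log2 change was 1.04 with ENV and 0.85 with LPS. Of 38 antiviral genes, 36 rose and 1 fell with each stimulus and 35 rose with both, with medians of 2.33 with ENV and 1.96 with LPS. Irf7, the interferon-induced master regulator, read 33.95, 56.5, 29.4 and 36.2 CPM in buffer and 1152, 761, 1003 and 778 CPM with ENV. It read 27.3, 30.2, 39.3 and 33.95 CPM in H2O and 306, 501, 1148 and 741 CPM with LPS. All vehicles lay within a narrow low range, whereas the LPS libraries were spread, with replicate 1 the lowest and replicate 3 the highest. The changes were 4.57 ± 0.37 (adjusted p = 1.28e-05) and 4.31 ± 0.37 (3.38e-05), and the difference was 0.26 (95% interval -0.75 to 1.27), with 1.60, -0.30, 0.23 and -0.02 by replicate. Mx1, which blocks viral replication, rose by 5.31 ± 0.42 and 4.94 ± 0.41, Rsad2 (viperin) by 3.73 ± 0.60 and 3.37 ± 0.59, and Ifit3 by 5.99 ± 0.65 and 5.02 ± 0.64. Irf8, a factor of the macrophage lineage, fell alike in both sets (-1.95 with ENV and -1.95 with LPS), and so did Epsti1 (-1.57 with ENV and -2.02 with LPS). The summed markers of microglia and macrophages were also lower with each stimulus, at 495, 168, 399 and 596 CPM with ENV against 1106, 248, 697 and 1038 CPM in buffer. In the LPS set they were 198, 169.7, 395 and 548 CPM against 436, 391.5, 725 and 1059.5 CPM. Of these 18 markers 10 fell with each stimulus, beside 17.6% of all tested genes with ENV and 13.6% with LPS. The part of these markers in the falls of Irf8 and Epsti1 was not tested.

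The guanylate-binding proteins and interferon-induced GTPases, which attack intracellular pathogens, rose in full: 10 of 10 with both stimuli, with medians of 3.37 with ENV and 2.78 with LPS. Gbp2 was the most abundant, at 4164, 2176, 3178 and 3529.8 CPM with ENV and 2714, 2720.2, 3339 and 3487 CPM with LPS, against 258, 241, 245 and 590.4 and 472, 293, 249.9 and 577 CPM in the vehicles. ENV replicate 2 was the lowest treated library, followed by LPS replicates 1 and 2, and its difference was 0.34 (95% interval -0.36 to 1.04). All 14 tested genes of MHC class I loading and the immunoproteasome also rose with both (medians 1.85 with ENV and 1.51 with LPS), among them B2m (1.99 ± 0.23 and 1.74 ± 0.23), the peptide transporter gene Tap1 (1.64 ± 0.16 and 1.5 ± 0.16) and Psmb8 (1.71 ± 0.18 and 1.51 ± 0.18). Of 13 tested genes of MHC class II and co-stimulation, 10 rose with ENV and 9 with LPS. The invariant chain gene Cd74 went from 0.802, 0.754, 0.665 and 3.81 to 96.2, 70.5, 179.7 and 350.4 CPM with ENV and from 0.49, 1.28, 1.63 and 2.10 to 4.29, 10.5, 202 and 336 CPM with LPS. Its level with LPS was low at replicates 1 and 2 and close to that with ENV at replicates 3 and 4, and the difference was 1.29 (95% interval -1.47 to 4.06). RT1-DMa and RT1-DMb, the peptide exchange factors of class II, were present in all vehicle libraries (at least 20.9 and 5.96 CPM) and were not called with either (-0.37 with ENV and -0.73 with LPS, and -0.69 with ENV and -1.45 with LPS). RT1 genes are near-identical copies between which reads may be split, so single RT1 values are uncertain.

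Among the enzymes of nitric oxide, prostaglandin and itaconate synthesis, 9 of 12 rose with both stimuli (medians 2.59 with ENV and 1.89 with LPS). Nos2, the inducible nitric oxide synthase, was at most 0.0812 CPM in any vehicle library. It reached 256, 7.03, 30.6 and 55.5 CPM with ENV and 17.1, 9.41, 19.5 and 39.03 CPM with LPS. The ENV libraries spanned a wide range, replicate 1 being the highest and replicate 2 the lowest of all treated libraries. Its difference was 0.63 (95% interval -7.14 to 8.40), which leaves the size of the ENV response relative to LPS undetermined. Ass1, which regenerates arginine for that enzyme, rose by 3.64 ± 0.41 and 2.87 ± 0.40, and Gch1, which makes its cofactor, by 3.23 ± 0.53 and 2.66 ± 0.54. Ptgs2, the inducible cyclooxygenase, rose by 2.35 ± 0.56 and 1.90 ± 0.56, and its constitutive relative Ptgs1 by 0.70 ± 0.10 and 0.35 ± 0.10, with a difference of 0.35 (95% interval 0.05 to 0.65) (unadjusted p = 0.0256). The LPS call of Ptgs2 (adjusted p = 0.0278) was lost when H2O replicate 1, 3 or 4, LPS replicate 2, 3 or 4 or replicate number 3 or 4 was left out (adjusted p between 0.0508 and 0.121), without the replicate block (0.138) and with replicates 1 and 2 alone (0.327), where the ENV call was lost too (0.206).

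Secreted acute-phase genes rose in 8 of 12 cases and fell in 1 with each stimulus (medians 2.78 with ENV and 2.33 with LPS). Lcn2, the iron-siderophore binding lipocalin of reactive astrocytes, read 7.01, 4.64, 7.67 and 49.9 CPM in buffer and 738, 352, 999.7 and 1858 CPM with ENV. The LPS set read 8.29, 2.08, 7.13 and 51.01 CPM in H2O and 236, 54.6, 861 and 1624 CPM with LPS. Replicate 4 was the highest in all 4 groups, and LPS replicate 2 was the lowest treated library. The changes were 6.34 ± 0.55 (adjusted p = 1.64e-05) and 5.42 ± 0.54 (6.3e-05), with a difference of 0.92 (95% interval -0.50 to 2.33), 1.88, 1.56, 0.11 and 0.23 by replicate. Orm1, an acid glycoprotein of the acute phase, had 1 count in the summed buffer libraries. Its ratio of summed counts was 5959.9 (95% counting interval 1069 to 235440.0) with ENV and 1241 (424 to 6022) with LPS. Complement genes parted by member in the same way with both stimuli: 7 of 16 rose and 5 fell with ENV, and 6 rose and 5 fell with LPS. Of all tested genes 15.4% rose and 17.6% fell with ENV, and 12.1% and 13.6% with LPS. C3, the central component, rose (2.37 ± 0.35 and 2.01 ± 0.34), as did Cfb (3.64 ± 0.65 and 3.40 ± 0.67) and the inhibitor gene Serping1 (2.36 ± 0.44 and 2.00 ± 0.45). The microglial initiator genes C1qa (-2.57 with ENV and -2.47 with LPS), C1qb (-2.08 with ENV and -2.09 with LPS) and C1qc (-1.69 with ENV and -1.91 with LPS) fell.

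Gene lists that describe reactive astrocyte states held members that rose and members that fell with each stimulus. Over all tested genes 15.4% rose and 17.6% fell with ENV, 12.1% and 13.6% with LPS, and 10.3% and 11.9% with both. Of 12 pan-reactive genes, 7 rose and 3 fell with both; Cd44, Osmr and Steap4 were among the former and the filament genes Gfap and Vim and the chaperone gene Hspb1 were the latter. Of 8 A1 genes, 5 rose and 2 fell with ENV and 4 rose and 2 fell with LPS. Of 12 A2 genes, 5 rose and 2 fell with ENV and 4 rose and 1 fell with LPS. The falls in the A2 list did not exceed the shares over all tested genes.

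Genes of astrocyte identity and homeostasis fell with both stimuli. Of 29 tested, 22 fell with each stimulus, 21 with both, and 2 rose with ENV, with median log2 changes of -1.15 with ENV and -1.10 with LPS. Gfap was at 5191, 5954, 5696 and 6147 CPM in buffer and 1378, 2316, 1950.1 and 2629 CPM with ENV. It was at 2925, 3532, 5264 and 6120.0 CPM in H2O and 745, 813, 2346 and 2737 CPM with LPS. Every stimulated library lay below every vehicle library of its set, as it did for 5.34% of all tested genes in the lower direction. H2O and LPS replicates 1 and 2 were the lowest of their groups. The falls were -1.53 ± 0.28 (adjusted p = 0.00137) and -1.52 ± 0.28 (0.00205), with a difference of -0.00416 (95% interval -0.84 to 0.83). Vim, the other main filament gene, fell by 1.33 ± 0.14 and 1.16 ± 0.14 with a difference of -0.17 (95% interval -0.60 to 0.26), from about the same vehicle levels in both sets. Kcnj10, the potassium channel of glial buffering, fell (-1.94 ± 0.26 and -1.48 ± 0.26), as did the glutamate transporter gene Slc1a3 (-0.73 ± 0.11 and -0.63 ± 0.11). Slc1a2, the other glutamate transporter, was called higher with ENV (0.88 ± 0.21, adjusted p = 0.00798) and not with LPS (0.34 ± 0.21, adjusted p = 0.27), with a difference of 0.54 (95% interval -0.12 to 1.20). Its LPS change was called without LPS replicate 1 (0.56, adjusted p = 0.0391) and with replicates 3 and 4 alone (0.83, adjusted p = 0.0110), and was -0.15 with replicates 1 and 2 alone. The ENV call of Slc1a2 was lost without the replicate block (adjusted p = 0.116), without replicate number 3 (0.0591) and with replicates 1 and 2 alone (0.0665). Aqp4 was not called with either (1.08 ± 0.47 and 0.82 ± 0.48). It went from 1020.3, 1013, 964 and 1051 to 1799, 1319, 3490.1 and 3467 CPM with ENV, higher at every replicate, and from 496, 707, 989.9 and 1031 to 468, 355, 3205 and 3314 CPM with LPS, lower at replicates 1 and 2 and higher at 3 and 4.

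The largest common falls were those of LRRTM1, Krt16, Synm, Sostdc1, Wscd2, Nkain4, Lypd1 and Klhdc8a, ranked by the smaller of the absolute log2 changes among 527 genes that fell with both and did not overlap in either set. Synm, an intermediate filament partner of Gfap and Vim, read 218, 165, 184 and 62.2 CPM in buffer and 6.95, 15.7, 10.5 and 4.34 CPM with ENV. It read 96.2, 111, 175 and 66.8 CPM in H2O and 13.8, 22.5, 16.1 and 4.05 CPM with LPS. Stimulated libraries were far below the vehicles everywhere, and replicate 4 was the lowest in each group. The falls were -4.09 ± 0.30 and -3.13 ± 0.29, and the difference of -0.95 (95% interval -1.79 to -0.12) had an unadjusted p of 0.0282 and came from replicates 1 to 3 (-2.16, -1.09, -0.69 and 0.20). Nkain4, which encodes a membrane protein, fell by 4.25 ± 0.38 and 3.04 ± 0.36, with a difference of -1.20 (95% interval -2.29 to -0.12) (unadjusted p = 0.0328) that was below 0 at all 4 replicates (-2.57, -0.82, -0.74 and -1.10), as it was for 7.26% of all tested genes. Sostdc1, a secreted antagonist of BMP and WNT signals, fell by 3.29 ± 0.29 and 3.13 ± 0.29. The 10 largest common rises were Ccl5, Nos2, Orm1, Csf3, Pla2g2a, Wfdc21, RT1-Da, Il1a, Cxcl11 and Il1b, from 628 genes that rose with both without overlap.

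Other groups had called members on both sides, some with more rises than falls. For the counts here and in the next paragraph, the shares over all tested genes were as follows. With ENV 15.4% rose and 17.6% fell, with LPS 12.1% and 13.6%, and with both 10.3% and 11.9%. Of 34 matrix and protease genes, 9 rose and 9 fell with both. The proteases Mmp3 (8.10 with ENV and 7.78 with LPS) and Mmp9 (7.41 with ENV and 6.32 with LPS) rose, and the collagen genes Col1a2 (-0.95 with ENV and -0.82 with LPS) and Col12a1 (-2.52 with ENV and -2.14 with LPS) fell. Summed markers of fibroblasts and mural cells, some of them also in that list, were lower with each stimulus: 8234, 11229, 10767 and 2802 CPM in buffer and 2023, 3468, 3269.7 and 1682 CPM with ENV. In the LPS set they were 3539, 6065, 10461 and 2956 CPM in H2O and 1977, 2405, 3616 and 1964 CPM with LPS. The log2 difference between the sets in these sums was -1.19, -0.36, -0.19 and -0.15 at replicates 1 to 4 (exact permutation test over 4 sign flips, 2-sided, p = 0.125, the smallest that 4 values allow), and its part in the gene results was not tested. Growth and neurotrophic factors fell in 9 of 26 cases with ENV and 4 with LPS and rose in 3 with each. Hbegf, a ligand of the EGF receptor, was called with neither (-0.47 with ENV and 0.65 with LPS), and its difference of -1.12 (95% interval -2.07 to -0.17) had an unadjusted p of 0.0241. It read 81.36, 104.98, 100.36 and 92.25 CPM in buffer and 58.81, 77.47, 55.28 and 84.02 CPM with ENV, lower at every replicate. In H2O it read 71.2, 84.17, 101.74 and 95.03 CPM, and with LPS 209.27, 209.11, 69.21 and 90.34 CPM. Its level with LPS was thus higher at replicates 1 and 2 and lower at replicates 3 and 4.

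Of 24 glycolysis and hypoxia genes, 6 rose and 3 fell with ENV and 5 rose and 5 fell with LPS. Slc2a1, the glucose transporter of glia and vessels, fell (-1.33 with ENV and -1.20 with LPS), while Slc2a3 (0.76 with ENV and 0.54 with LPS) and Hif1a (0.99 with ENV and 0.82 with LPS) rose. Of 16 NRF2 and metallothionein genes, 6 rose and 2 fell with ENV and 3 rose and 4 fell with LPS, and the cystine transporter gene Slc7a11 was the largest common rise among them (3.00 with ENV and 2.19 with LPS). Immediate early and AP-1 genes rose in 8 of 26 cases with ENV and 9 with LPS, and fell in 3 and 1. Adhesion molecules rose in 4 of 10 cases with each stimulus, among them Vcam1 (3.86 with ENV and 3.65 with LPS) and Icam1 (1.66 with ENV and 1.84 with LPS), and fell in 2 with ENV and 1 with LPS. Of 16 genes of the unfolded protein response, 5 rose and 1 fell with ENV and 4 rose and 1 fell with LPS, Ddit3 (CHOP) among the rises (1.57 with ENV and 1.51 with LPS).

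Cell cycle genes were hardly called, with 1 of 28 higher (the inhibitor gene Cdkn1a) with each stimulus, 1 lower with ENV (Mcm2) and 0 lower with LPS. Of all tested genes 15.4% rose and 17.6% fell with ENV, and 12.1% and 13.6% with LPS. The medians of the cell cycle genes differed by replicate number in the same way with both stimuli. The median log2 change over the 28 genes was 0.20, 0.49, -0.02 and -1.5 with ENV and 0.11, 0.40, -0.20 and -1.48 with LPS at replicates 1 to 4, so that the stimulated libraries of replicate 4 alone lay far below their vehicles. The difference between the stimuli stayed between -0.07 and 0.05 at every replicate.

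Of the 26 lists of function, cholesterol synthesis genes had the lowest median difference, -0.19, and 4 of 23 had a difference above 0, beside 7456 of the 15496 tested genes. With ENV 3 rose and 5 fell, and with LPS 3 rose and 1 fell, beside 15.4% and 17.6% of all tested genes with ENV and 12.1% and 13.6% with LPS. Cyp51, the sterol demethylase, was at 122, 119, 112 and 98.2 CPM in buffer and 69.9, 84.4, 81.7 and 81.5 CPM with ENV, and at 86.2, 100.3, 110.0 and 98.5 CPM in H2O and 93.8, 114, 89.4 and 84.5 CPM with LPS. It fell with ENV (-0.51 ± 0.10, adjusted p = 0.00163) and was not called with LPS (-0.05 ± 0.10, adjusted p = 0.72). The difference was -0.45 (95% interval -0.74 to -0.16) with an unadjusted p of 0.00558, and -0.92, -0.67, -0.15 and -0.05 by replicate. Msmo1, the next demethylase of the pathway, had log2 changes of -0.45 with ENV and 0.03 with LPS and a difference of -0.47 (95% interval -0.80 to -0.15) (unadjusted p = 0.0075; -0.67, -0.60, -0.44 and -0.21 by replicate). For both genes the values at replicates 3 and 4 were closer to 0 than those at replicates 1 and 2, and the list's median difference was -0.30, -0.27, -0.06 and -0.01 at replicates 1 to 4.

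**Figure D4:**
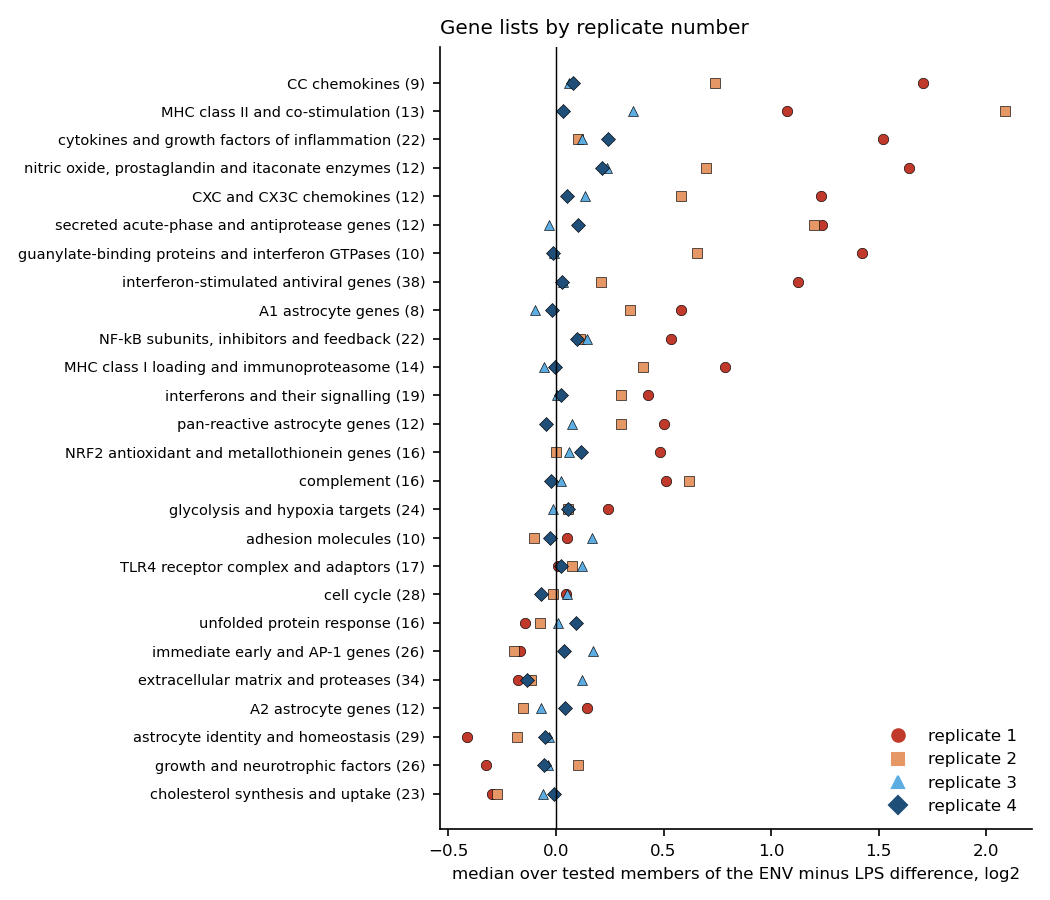
Median over the tested members (number in brackets) of the ENV minus LPS difference, on the log2 scale, for 26 gene lists at each replicate number. At replicates 3 and 4 the medians lie between -0.13 and 0.36. At replicates 1 and 2 they reach 1.70 and 2.09.

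Set out by replicate number, several inflammatory and interferon lists had larger median differences at replicates 1 and 2 than at replicates 3 and 4. For CC chemokines the median difference was 1.70, 0.74, 0.06 and 0.08 at replicates 1 to 4, for antiviral genes 1.12, 0.21, 0.03 and 0.03, for guanylate-binding proteins 1.42, 0.65, -0.01 and -0.01 and for MHC class I 0.79, 0.40, -0.05 and -0.01. Of the 38 antiviral genes, 37, 28, 19 and 23 had a difference above 0 at replicates 1 to 4. Other lists differed from this. The NF-kB list (0.53, 0.11, 0.14 and 0.10) and the cytokine list (1.52, 0.10, 0.12 and 0.24) were highest at replicate 1, and replicate 2 was below replicate 3. MHC class II had its largest value at replicate 2 (1.07, 2.09, 0.36 and 0.03). Astrocyte identity genes showed the reverse sign, -0.41, -0.18, -0.03 and -0.05. The median ENV changes of the CC chemokines were 6.75, 5.52, 6.62 and 5.60 and the LPS changes 5.01, 4.21, 6.70 and 5.71 at replicates 1 to 4. For guanylate-binding proteins they were 3.92, 2.96, 3.69 and 2.55 with ENV and 2.23, 1.91, 3.58 and 2.49 with LPS. The ENV medians at replicate 1 were thus close to those at replicate 3, while the LPS medians at replicates 1 and 2 were below those at replicates 3 and 4.

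With replicates 3 and 4 alone, 0 genes were called in the test of the difference (167 genes, 1.07%, at an unadjusted p under 0.05), and 3574 genes were called with both stimuli. The counts of members higher with both were then 19 of 22 NF-kB genes, 9 of 9 CC chemokines, 35 of 38 antiviral genes and 13 of 22 cytokines. Lower with both were 1 antiviral gene and 1 cytokine gene. Of 29 astrocyte identity genes, 19 were lower and 3 higher with both. Over the 15581 genes tested in that fit, 1740 were higher and 1834 lower with both. With replicates 1 and 2 alone, 0 genes were called in the test of the difference and 1666 (10.8%) had an unadjusted p under 0.05. In those libraries the vehicles differed by 651 calls and the stimulated libraries by 2094, and 2126 genes were called with both in the same direction and 12 in opposite directions.

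**Figure D5:**
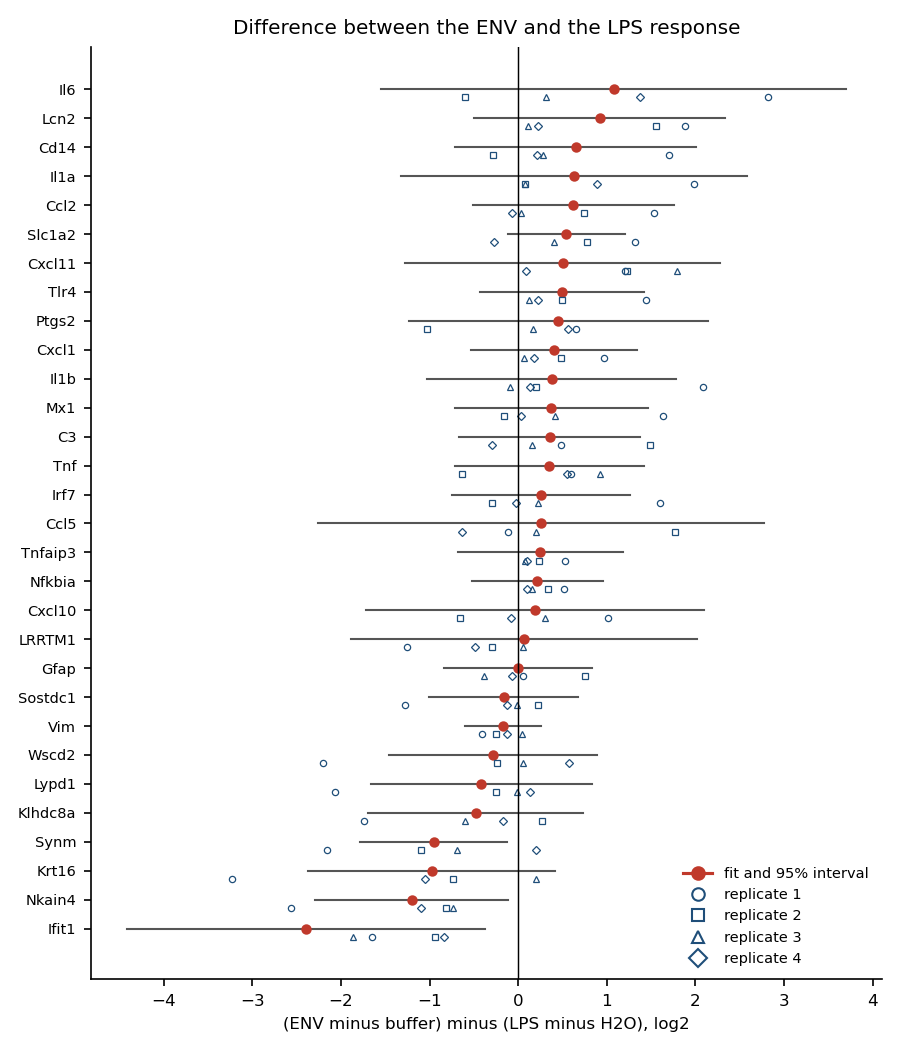
The ENV minus LPS difference on the log2 scale (x axis) for 30 of the 36 named genes, with the fitted value and its 95% interval and, below it, the value at each replicate number. Another 6 genes with intervals wider than 6 log2 units are not drawn. The intervals of Synm, Nkain4 and Ifit1 exclude 0 without adjustment, and replicate 1 is the highest or lowest point for many genes. Ifit1 was at most 0.566 CPM in any library, so its interval rests on few counts.

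The genes of smallest unadjusted p in the test of the difference are given as values, chosen after their values were seen, since none was called by edgeR. Lrrtm2, a synaptic adhesion gene, had the smallest, 0.000638. It was at 3.45, 2.15, 3.95 and 1.49 CPM in buffer, 2.98, 2.33, 4.56 and 1.65 with ENV, 3.74, 3.55, 4.66 and 2.62 in H2O and 2.06, 1.14, 2.72 and 1.20 with LPS. It fell with LPS (-1.09 ± 0.18, adjusted p = 0.00114) and was not called with ENV (0.06 ± 0.18, adjusted p = 0.813), and the difference was 1.16 (95% interval 0.60 to 1.71). Part of that difference lay between the vehicles, with buffer minus H2O at -0.47 (unadjusted p = 0.0208) and ENV minus LPS libraries at 0.69 (unadjusted p = 0.00263). Ciart, a repressor of the circadian clock, had a difference of 1.07 (95% interval 0.47 to 1.66) (unadjusted p = 0.00201), above 0 at each replicate (1.70, 0.91, 1.26 and 0.33), as for 7.98% of all tested genes. Its buffer libraries (1.53, 2.07, 2.46 and 2.92 CPM) were lower than the H2O libraries (3.64, 2.98, 3.34 and 3.65 CPM), and its ENV libraries (3.68, 4.32, 4.73 and 3.55 CPM) were higher than the LPS libraries (2.60, 3.26, 2.62 and 3.51 CPM), without overlap in either case. The unadjusted p-values of these comparisons were 0.00788 and 0.0364. Pir, which encodes an iron-binding nuclear protein, was at a mean of 33.9 CPM, with a difference of 0.49 (95% interval 0.18 to 0.80). Its unadjusted p was 0.00441, and the values by replicate were 0.78, 0.51, 0.39 and 0.25. For Pir, buffer minus H2O was -0.29 (unadjusted p = 0.0121) and ENV minus LPS libraries 0.20 (unadjusted p = 0.0710). Among the antiviral genes, Ifit1bl had 0.82 (95% interval 0.32 to 1.32) and Zbp1, a sensor of nucleic acids, 1.51 (95% interval 0.02 to 3.00), and among the guanylate-binding proteins Gbp4 had 0.84 (95% interval 0.12 to 1.56). The unadjusted p-values of these were 0.00367, 0.0476 and 0.0261.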

How the data were processed

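RNA was sequenced after mRNA capture from 150 ng of total RNA, per the labels' protocols. The values the authors deposited are raw whole-number counts by gene symbol, 1 file a library, with totals of 23742228 to 35326938. The submitters' processing notes name HISAT2, StringTie 1.3.3b and the build mRatBN7.2 without saying which step used each. For the annotation release and the strand setting, the sources used here give nothing. Reads of near-identical copies (RT1, Ifit, Oas, Ccl and Cxcl families) or of overlapping genes could not be separated. No label names a batch.

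Genes were joined by symbol: 19423 were listed in both sets, 845 in the ENV set alone and 633 in the LPS set alone. All 16 libraries were fitted together in R 4.3.3 with edgeR 4.0.16 (limma 3.58.1), and each contrast was tested by its quasi-likelihood F test: filterByExpr by group, TMM, robust fit, with group and replicate number as terms. Adjusted p-values are Benjamini-Hochberg values over all 15496 genes tested, and "called", "rose" and "fell" mean that this value was below 0.05. Errors beside log2 changes are standard errors. Log2 CPM and the values by replicate used a prior count of 2. The scripts were tested on simulated counts.

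Replicate numbers come from the sample titles. Deviations from the group means correlated over 0.1 in 24 of 24 same-number pairs (0.267 to 0.906), so the numbers were taken to pair the samples and were used as a block shared by both sets. Pairs of different numbers had a median correlation of -0.271 and a highest value of 0.685, above the same-number median of 0.639. No pair of libraries agreed within sampling noise (the lowest median chi-square over its sampling value was 2.68).

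Named genes were the 10 largest rises and 8 largest falls called with both stimuli, ranked by the smaller absolute change, without overlap in either set and with at least 10 CPM in a group. To them came a panel of 24 genes (22 tested) and list members named with their list. The comparison, the panel and the gene lists were chosen with earlier results of these data known. Alternatives were no block, a block within each set, DESeq2 1.42.0, median-ratio size factors, other filters on low counts, genes of 1 set entered at 0, and leaving out libraries, replicate numbers or pairs of them. Promoter windows came from RefSeq (GRCr8) and were matched by symbol; of 30 named genes that rose or were on the panel 24 had one. That build differs from the counts' build, so no other coordinates are given.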

Additional observations from a re-analysis of the deposited data

Results flagged for a closer look

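Each group of 4 values was examined for a highest or lowest value that stood apart from the other 3, by the gap to its neighbour relative to the range of the group. Of 144 such groups of CPM (36 named genes in 4 groups, on the log2 scale), 6 (4.17%) held one, and chance flags about 1 in 20. ENV replicate 2 stood below the other ENV libraries in Ccl5 (349.7 CPM), Il1a (24.04 CPM) and Il6 (4.42 CPM). Buffer replicate 4 stood above the other buffer libraries in Cxcl10 (39.77 CPM) and Tnfaip3 (43.39 CPM), and H2O replicate 4 above the other H2O libraries in Orm1 (0.119 CPM). That Orm1 value is below the 0.124 CPM that a count of 0 allows in the library.

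Of 36 differences between the responses by replicate number, 1 had such a value: that of Il1b was 2.08 at replicate 1. Among the median differences of 35 gene lists, 3 (8.57%) had one, all at replicate 1: NF-kB subunits and inhibitors (0.53), cytokines (1.52) and antiviral genes (1.12), on the log2 scale. At replicate 1 the log2 change of the summed fibroblast and mural cell markers with ENV minus that with LPS was -1.19, against -0.36, -0.19 and -0.15 at replicates 2 to 4. The part of these markers in the medians was not tested.

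DESeq2 called 22 genes in the test of the difference between the responses, of which 21 had at most 9 counts in any library and were not tested by edgeR. The other was Lrrtm2, with a log2 difference of 1.13 (adjusted p = 0.0464). The edgeR test did not call it (adjusted p = 0.99997). The difference was above 0 at all 4 replicate numbers, at levels of 1.14 to 4.66 CPM.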

How the results depend on the processing

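The test of the difference between the responses gave 0 calls in either direction under every edgeR alternative and with each library or replicate number left out, and DESeq2 with the replicate block gave 10 genes whose log2 change was higher with ENV and 12 whose change was higher with LPS. Without the replicate block the calls fell to 2686 with ENV, 1736 with LPS, 778 higher with both and 761 lower with both. Between vehicles DESeq2 called 12 genes, entering genes of 1 set at 0 gave 1, and replicates 1 and 2 alone gave 651. Between ENV and LPS libraries DESeq2 called 36 and replicates 1 and 2 alone 2094. Replicates 1 and 2 alone also gave 1003 genes higher and 1123 lower with both. The cause was not tested.

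With a library or a replicate number left out, calls ranged from 3341 to 5410 with ENV, from 2194 to 4001 with LPS, from 776 to 1621 higher with both and from 1024 to 1788 lower with both. The count moved by over 1.5 times without H2O replicate 3 (2646 called with LPS, 1064 higher with both) and without H2O replicate 4 (1063 higher with both). The same held without replicate number 1 (3341 with ENV), 3 (3369 with ENV, 2194 with LPS, 776 and 1024 with both) and 4 (992 higher with both). Such fits have fewer samples.

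A replicate block within each set gave 3286 common genes, 3023 of them shared with the 3435, and the blocks paired within stimulated and within vehicle libraries, an alternative chosen after seeing the data, 4021 (3341 shared). The vehicle and stimulus comparisons cannot be estimated under those blocks. Of 1079 values of the 36 named genes under the alternatives, 1070 with ENV and 1043 with LPS kept direction and call, and 0 called values changed sign. The ENV minus LPS differences of these genes were less stable. Of 1079 such values, 994 kept direction and call and 85, all uncalled, changed sign. Beside the genes so described in the report, calls were lost for Ifit1 with LPS (without replicate number 1 or 3, or with either pair of replicates alone), LRRTM1 with LPS (without replicate number 3), C3 with both (without the replicate block), and Il6 with both, and Nos2 and Krt16 with LPS, with replicates 1 and 2 alone. Over all genes, calls in opposite directions with ENV and LPS numbered 12 with replicates 1 and 2 alone, 1 with replicates 3 and 4 alone, 1 without H2O replicate 1 and 0 under the other settings.

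The depth limits genes near 0 in the vehicles, such as Nos2, Orm1, Csf3 and Pla2g2a, whose differences have intervals of several log2 units. Genes listed in 1 set alone had totals of at most 17 counts in the ENV set and, apart from Hist1h4m, 22 in the LPS set.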

Other observations

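Hist1h4m, a histone H4 gene, was listed in the LPS set alone with 449 counts and so entered no comparison between the stimuli. Its level was 1.89, 1.23, 3.06 and 3.56 CPM in H2O replicates 1 to 4 and 1.18, 1.41, 2.54 and 2.37 CPM with LPS.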
